A study of Oryza sativa with 12 samples.

Results

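The genes described here make, remove or answer to reactive oxygen species in rice seedlings: superoxide dismutases (SOD), catalases (CAT), ascorbate peroxidases (APX), monodehydroascorbate reductases (MDAR), type II peroxiredoxins (PRXII), thioredoxins (TRX), glutaredoxins (GRX), class III peroxidases (PRX) and a respiratory burst oxidase homologue (RBOH). They were chosen by name: every gene whose symbol or synonym in the reference gene table begins with one of these family names, dehydroascorbate reductases (DHAR) and glutathione peroxidases (GPX) included, was taken. The table named 67 such genes, and 47 of them had a probe set of their own among the 15140 genes measured. By family these were 4 SOD, 2 CAT, 6 APX, 2 MDAR, 3 PRXII, 13 TRX, 14 GRX, 2 PRX and 1 RBOH genes, and no gene was found under the names DHAR or GPX. One member, *OsTrx1* (LOC4346464), carries the names *SDG723* and *OsSET33* as well, which are names of SET domain histone methyltransferases, so it shares the family name only.

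Superoxide formed in chloroplasts, mitochondria or at the plasma membrane is turned into hydrogen peroxide by superoxide dismutases, and catalases of the peroxisome and ascorbate peroxidases of several compartments then remove the peroxide. Monodehydroascorbate reductases recycle the ascorbate that is spent, while peroxiredoxins draw their electrons from thioredoxins and glutaredoxins, small proteins that reduce disulfide bonds in other proteins. Respiratory burst oxidases of the plasma membrane make superoxide on purpose as a signal, and class III peroxidases of the cell wall use peroxide to cross-link wall polymers. In leaves that lose water, stomatal closure limits carbon fixation and photorespiration, light and respiration all feed these pathways.

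The seedlings were of the cultivar Pusa Basmati 1, 3 weeks old, and came as wild type (WT) or as plants that over-express *OsHOX24*, a homeodomain-leucine zipper I gene. They were kept in water for 3 h (control, CT) or dried between folds of tissue paper for 3 h (desiccation stress, DS, which the labels call drought). The 4 groups WT_CT, WT_DS, H49_CT and H49_DS held 3 arrays each, which the methods call independent biological replicates. The over-expressing plants are 1 homozygous line, named H49 in the paper and not in the labels, in which a ubiquitin promoter drives the open reading frame.

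Values were log2 numbers from Robust Multi-array Average (RMA), with array medians between 4.33 and 4.46, and the lowest correlation between arrays of a group was 0.949. On these arrays the over-expressed gene was not higher in those labelled H49. *HOX24* was 4.18 ± 1.39 (SD, n = 3) in WT_CT and 3.79 ± 0.69 (SD, n = 3) in H49_CT. After DS it stood at 9.91 ± 0.48 (SD, n = 3) in WT_DS and 9.86 ± 0.37 (SD, n = 3) in H49_DS. H49 differed from WT over both treatments by -0.22, with a 95% interval from -1.06 to 0.61. By real-time PCR the paper reports a raised *OsHOX24* level in the H49 line compared with WT. Where the *HOX24* probes of the array lie relative to the construct is not known here. The RNA came from whole seedlings, so fewer cells of a type and less RNA per cell cannot be told apart.

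The first question was how DS changed these genes in each genotype. A gene was called when its adjusted p from limma was at most 0.05 and its fold change at least 2, that is 1 on the log2 scale. After DS in WT, 3 of the 47 genes rose and 7 fell, and in H49 5 rose and 8 fell. That was 21.3% of the members in WT and 27.7% in H49, against 13.4% and 14.6% of all genes. By direction the same rule called 4.93% of all genes as risen and 8.47% as fallen in WT, and 5.26% and 9.3% in H49. In all 16 members were called in at least 1 genotype, none in opposite directions, a count that was not made over all genes. Of these 16 members 7 were called in both, 3 up (616 or 4.07% of all genes) and 4 down (955 or 6.31% of all genes). Of all 15140 genes, 2030 were called in WT and 2205 in H49. The members were brighter than the average gene, with 37 of 47 above the median level of all genes. Among genes above that level 20% were called in WT and 21.4% in H49, against 24.3% and 27% of the members there. The share of members called was thus above that of all genes, and closer to that of genes above the median level.

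The median log2 fold change of the members was -0.26 in WT and -0.28 in H49, against -0.06 in both genotypes over all genes. Centring each array on the median of all genes moved the latter by 0.21 in WT and 0.22 in H49, and the called members then numbered 3 up and 4 down in WT and 5 up and 6 down in H49. Over all genes the same centring turned the balance, from 747 up and 1283 down to 1100 up and 774 down in WT, and from 797 up and 1408 down to 1136 up and 885 down in H49. Falls then made up 57.1% of the called members in WT instead of 70%, and 54.5% in H49 instead of 61.5%. With the array of H49_CT replicate 1 left out, 3 members rose and 3 fell in H49, and without H49_DS replicate 2, 5 fell. The changes of all members are shown by family in the plot that follows.

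**Figure D1:**
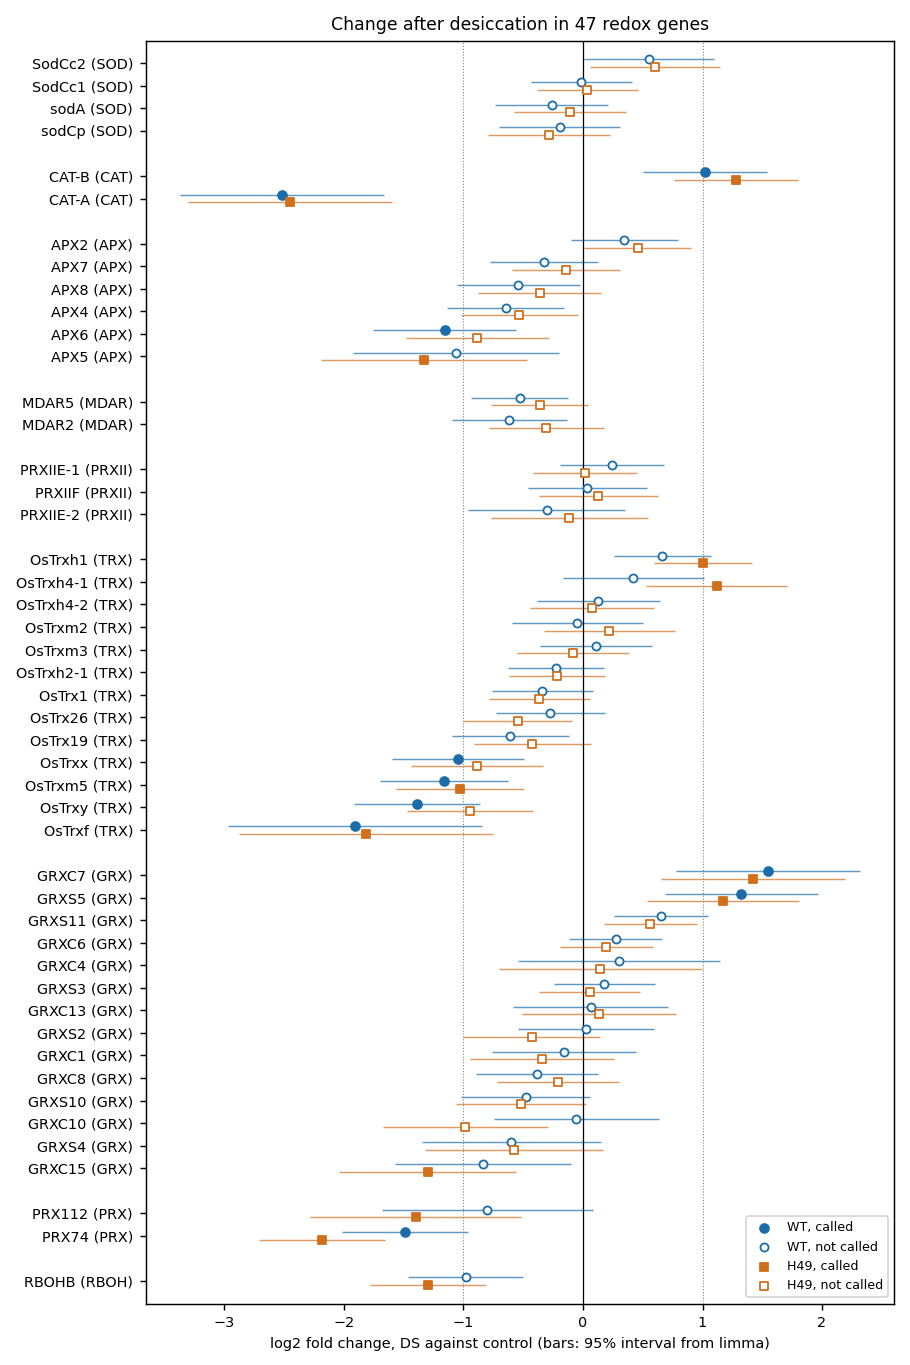
Log2 fold change after DS of the 47 members, grouped by family, with 95% intervals from limma: circles WT, squares H49, filled where the gene was called. Dotted lines mark a 2-fold change. *CAT-A* lies farthest to the left at -2.52 in WT and -2.45 in H49, and *GRXC7* farthest to the right at 1.55 and 1.42.

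The 2 catalase genes found by name went opposite ways. *CAT-A* (LOC4328073) stood at 7.69, 6.86 and 7.29 in WT_CT and at 4.59, 4.35 and 5.35 in WT_DS, and at 8.22, 6.81 and 7.16 in H49_CT against 5.46, 4.26 and 5.12 in H49_DS. Every DS array lay more than 1 log2 unit below every control array. Its fold change was 5.72 in WT (log2 -2.52, standard error 0.40, limma adjusted p = 6e-04) and 5.46 in H49 (log2 -2.45, limma adjusted p = 0.00066). *CAT-B* (LOC4342124) moved from 9.75, 8.77 and 9.31 in WT_CT to 10.14, 10.20 and 10.54 in WT_DS, and from 9.38, 8.94 and 9.40 in H49_CT to 10.69, 10.44 and 10.42 in H49_DS. The DS arrays again did not overlap the control arrays, now from above. *CAT-B* rose by 1.02 in WT (standard error 0.24, limma adjusted p = 0.0074) and by 1.28 in H49 (limma adjusted p = 0.0017). The rise in WT was at the edge of the fold minimum and fell below it without WT_CT replicate 2 (0.77), without WT_DS replicate 3 (0.90) and with quantile normalization (0.95), while the limma adjusted p stayed at or below 0.029.

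None of the 4 SOD genes was called, where 13.4% of all genes were in WT and 14.6% in H49. *SodCc2* (LOC4344210), for a cytosolic copper-zinc enzyme, had the largest values of the family, 0.56 in WT (95% interval 0.01 to 1.10, limma adjusted p = 0.12) and 0.60 in H49 (95% interval 0.06 to 1.15, limma adjusted p = 0.095). Its H49_DS arrays at 7.03, 6.95 and 7.41 lay above those of H49_CT at 6.64, 6.07 and 6.87, whereas the WT groups overlapped. The other cytosolic gene, *SodCc1* (LOC4332846), was at -0.01 in WT and 0.04 in H49, with 95% intervals from -0.44 to 0.41 and from -0.39 to 0.46. The mitochondrial manganese gene *sodA* (LOC4338417) had -0.26 and -0.11 and the plastid copper-zinc gene *sodCp* (LOC4346329) -0.20 and -0.28. With centred arrays the family median of -0.10 in WT became 0.10 and that of -0.04 in H49 became 0.18. *SodCc2* stayed above 0 under both other scalings and then passed the adjusted p below 2-fold: centred arrays gave 0.76 in WT (limma adjusted p = 0.031) and 0.82 in H49 (limma adjusted p = 0.021), and quantile normalization 0.71 (limma adjusted p = 0.036) and 0.72 (limma adjusted p = 0.035). A second probe set of *sodA*, with a mean of only 2.28, gave 0.04 in WT and 0.31 in H49.

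Among the ascorbate peroxidases, *APX6* (LOC4351663) fell in WT and *APX5* (LOC4351664), which lies next to it in the genome, fell in H49. *APX6* was at 7.41, 6.99 and 7.36 in WT_CT and at 6.11, 5.49 and 6.70 in WT_DS, a change of -1.15 (standard error 0.28, limma adjusted p = 0.0082). In H49 its arrays went from 7.61, 6.87 and 7.10 to 6.40, 6.24 and 6.29, also without overlap, and the value of -0.88 (limma adjusted p = 0.031) was short of the fold minimum. The WT call was lost without WT_DS replicate 2 (-0.85) and with centred arrays (-0.95), and in H49 a call was gained without H49_CT replicate 2 (-1.04). *APX5* was at 5.24, 5.35 and 5.76 in WT_CT and at 4.46, 4.47 and 4.25 in WT_DS, a change of -1.06 (limma adjusted p = 0.066). In H49_CT it spread over 5.77, 3.80 and 5.40 and in H49_DS it was at 4.15, 3.52 and 3.30, a change of -1.33 (standard error 0.40, limma adjusted p = 0.024).

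The *APX5* calls turned on single arrays and on the processing. In H49 the call was lost without H49_CT replicate 1 (-0.94), H49_CT replicate 3 (-1.12), H49_DS replicate 2 (-1.26) or H49_DS replicate 3 (-1.15), and without the low H49_CT replicate 2 the value was -1.93. In WT the gene was called at -1.06 once H49_CT replicate 2 (limma adjusted p = 0.0069) or H49_CT replicate 1 (limma adjusted p = 0.043) was left out, because all groups share 1 estimate of the spread. The call in H49 was also lost with centred arrays (-1.11, limma adjusted p = 0.053) and with adjustment over all probe sets (limma adjusted p = 0.060). The other APX genes were not called. *APX4* (LOC4346247), for a peroxisomal enzyme, was at 8.33, 8.28 and 8.58 in WT_CT against 7.22, 8.03 and 7.995 in WT_DS, and its DS arrays lay below the controls in both genotypes (-0.64 and -0.53). *APX8* (LOC4329643), for the thylakoid-bound enzyme, had -0.54 and -0.36, and *APX7* (LOC4335896), for a stromal one, -0.33 and -0.14. The cytosolic *APX2* (LOC4344397) was the only measured APX gene above 0, at 0.35 and 0.46, and its H49_DS arrays (7.37, 7.28 and 7.07) were all higher than those of H49_CT (6.87, 6.91 and 6.57).

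Neither MDAR gene was called (13.4% of all genes in WT and 14.6% in H49 were). *MDAR2* (LOC4330469) was at 7.68, 7.80 and 7.43 in WT_CT and at 6.87, 7.17 and 7.03 in WT_DS, a change of -0.62 with a 95% interval from -1.09 to -0.14 (limma adjusted p = 0.057). In H49 it had -0.30 with overlapping arrays. *MDAR5* (LOC4344670) had -0.53 in WT (limma adjusted p = 0.053) and -0.36 in H49, with no overlap between DS and control in either genotype.

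None of the 3 type II peroxiredoxins was called, against 13.4% of all genes in WT and 14.6% in H49. *PRXIIF* (LOC4324376), for the mitochondrial form, was at 0.03 in WT (95% interval -0.46 to 0.53) and 0.13 in H49, and *PRXIIE-1* (LOC4341570), for a plastid form, at 0.24 and 0.02. *PRXIIE-2* (LOC4328586) had -0.30 and -0.11, with a mean of only 2.70 over all arrays, so little signal stood behind it. All 3 had overlapping arrays in both genotypes.

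The 13 members under the thioredoxin name, the SET domain gene *OsTrx1* among them, are given by the subtype in their names. The f, m, x and y types work in the chloroplast, where f and m pass electrons from the light reactions to enzymes of carbon fixation and x and y serve peroxiredoxins, whereas h types work mainly in the cytosol. All 3 genes of the f, x and y types fell in WT, from -1.90 to -1.05, and their values in H49 were from -1.81 to -0.88, with 1 of 3 called. Of 3 m genes 1 fell in both genotypes, and of 4 h genes 2 rose in H49 and 0 in WT. Of all 13, 0 rose and 4 fell in WT, where 4.93% and 8.47% of all genes did, and 2 rose and 2 fell in H49, against 5.26% and 9.3%. With centred arrays the falls were 2 in WT and 1 in H49. Setting f, x and y apart from m does not follow the functions given above. The difference between subtypes was not tested.

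*OsTrxf* (LOC4324320, also *OsTrx03*) fell the most. It was at 10.66, 11.13 and 9.69 in WT_CT and at 7.88, 9.20 and 8.69 in WT_DS, and at 10.96, 10.85 and 9.01 in H49_CT against 8.46, 8.64 and 8.28 in H49_DS. Every DS array was below every control array of its genotype, although replicate 3 stood well under the other control arrays in both genotypes. The change was -1.90 in WT (standard error 0.49, limma adjusted p = 0.012) and -1.81 in H49 (limma adjusted p = 0.015). The adjusted p rose above the threshold without WT_DS replicate 1 in WT (-1.55, limma adjusted p = 0.059) and without H49_CT replicate 1 (-1.47, limma adjusted p = 0.070) or H49_CT replicate 2 (-1.52, limma adjusted p = 0.060) in H49.

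*OsTrxy* (LOC4324458) was at 7.15, 7.49 and 7.60 in WT_CT and at 5.45, 6.26 and 6.37 in WT_DS, a fall of 2.61-fold (log2 -1.38, standard error 0.24, limma adjusted p = 0.0013) that was called without any single array. In H49 it had -0.95 (limma adjusted p = 0.011), which passed the fold minimum without H49_CT replicate 2 (-1.07) or H49_DS replicate 3 (-1.002). *OsTrxx* (LOC4337394) was at 6.85, 6.87 and 7.41 in WT_CT and at 5.48, 5.996 and 6.51 in WT_DS, a change of -1.05 (limma adjusted p = 0.0091) that lost its call without WT_CT replicate 3 (-0.86) or WT_DS replicate 1 (-0.79). Its value in H49 was -0.88 (limma adjusted p = 0.021). With centred arrays it was at -0.84 in WT.

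*OsTrxm5* (LOC9270622) was at 9.10, 9.56 and 9.05 in WT_CT, at 7.52, 8.44 and 8.28 in WT_DS, at 9.31, 9.33 and 8.89 in H49_CT and at 8.35, 8.09 and 8.01 in H49_DS. No array of DS reached a control array, and the gene fell by 1.16 in WT (standard error 0.25, limma adjusted p = 0.0042) and by 1.03 in H49 (limma adjusted p = 0.0079). Being near the fold minimum, it was not called in WT without WT_CT replicate 2 (-0.998) or WT_DS replicate 1 (-0.88), nor in H49 without H49_CT replicate 1 (-0.96), H49_CT replicate 2 (-0.95), H49_DS replicate 2 (-0.99) or H49_DS replicate 3 (-0.95), and with centred arrays it had -0.95 and -0.81. The limma adjusted p was at most 0.033 in each of these fits with an array left out. The other m genes stayed near 0: *OsTrxm2* (LOC4336484) had -0.05 in WT and 0.22 in H49, and *OsTrxm3* (LOC9270732) 0.11 and -0.08.

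*OsTrxh1* (LOC4342593), a thioredoxin known from rice phloem sap, was at 7.28, 7.47 and 7.32 in H49_CT and at 8.53, 8.33 and 8.22 in H49_DS, a rise of 1.00 (standard error 0.19, limma adjusted p = 0.0017). In WT its DS arrays at 7.82, 8.04 and 8.03 also lay above the controls at 7.66, 7.19 and 7.05, and the value of 0.66 (limma adjusted p = 0.020) was short of 2-fold. The call in H49 was lost without H49_CT replicate 1 (0.97), H49_CT replicate 3 (0.99) or H49_DS replicate 1 (0.92). *OsTrxh4-1* (LOC4325189) rose in H49, from 5.01, 4.67 and 5.12 to 5.89, 6.13 and 6.14, by 1.12 (standard error 0.27, limma adjusted p = 0.0083), or by 0.99 without H49_CT replicate 2. In WT its groups overlapped, with 5.96, 4.98 and 5.30 in control and 5.30, 6.03 and 6.17 after DS (0.42, limma adjusted p = 0.28). *OsTrxh4-2* (LOC4337927) was at 0.13 and 0.07, and *OsTrxh2-1* (LOC4342618) at -0.23 and -0.22.

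The 3 members with no subtype in the name were below 0 in both genotypes and not called. *OsTrx19* (LOC4338057) had -0.61 in WT (limma adjusted p = 0.063) and -0.42 in H49, *OsTrx26* (LOC4346999, also *OsTDX*) -0.27 and -0.54, and the SET domain gene *OsTrx1* -0.34 and -0.36.

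Of 14 glutaredoxins, 2 rose whatever the genotype and 1 fell, in H49. For comparison, 4.07% of all genes were called up in WT and H49 alike, and 9.3% were called down in H49. *GRXC7* (LOC4338050) was at 6.06, 5.83 and 5.17 in WT_CT and at 6.68, 7.75 and 7.29 in WT_DS, and at 5.70, 5.18 and 6.17 in H49_CT against 6.995, 6.60 and 7.72 in H49_DS. All DS arrays were above all control arrays, and the fold change was 2.93 in WT (log2 1.55, standard error 0.36, limma adjusted p = 0.0065) and 2.68 in H49 (log2 1.42, limma adjusted p = 0.0098). *GRXS5* (LOC4326324) was at 8.11, 8.31 and 7.98 in WT_CT and at 9.33, 9.32 and 9.73 in WT_DS, a rise of 1.33 (standard error 0.30, limma adjusted p = 0.0054). In H49 it went from 7.56, 8.73 and 8.94 to 9.55, 9.41 and 9.79, a rise of 1.17 (limma adjusted p = 0.0099), which was 0.75 without the low H49_CT replicate 1.

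*GRXS11* (LOC4349033) was the only member that passed the adjusted p in both genotypes and stayed below 2-fold in both. Its values were 5.61, 5.91 and 5.52 in WT_CT and 6.24, 6.24 and 6.52 in WT_DS (0.65, limma adjusted p = 0.018), and 5.87, 6.04 and 5.86 in H49_CT against 6.24, 6.54 and 6.68 in H49_DS (0.56, limma adjusted p = 0.034). *GRXC15* (LOC4352426) fell in H49, from 7.49, 7.13 and 6.36 to 6.26, 5.22 and 5.61, by 1.30 (standard error 0.34, limma adjusted p = 0.012), with a value of -0.84 in WT (limma adjusted p = 0.089). That call was lost without H49_CT replicate 1 (-1.05, limma adjusted p = 0.061) or H49_DS replicate 2 (-1.06, limma adjusted p = 0.059). *GRXC10* (LOC4351046), with a mean of only 3.51, had -0.05 in WT and -0.98 in H49 (limma adjusted p = 0.035), and was called in H49 without H49_DS replicate 1 (-1.23).

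The other glutaredoxins were not called and lay between -0.60 and 0.30. They were *GRXC6* (LOC4336354) at 0.27 in WT and 0.20 in H49, *GRXC4* (LOC4329999) at 0.30 and 0.14, *GRXS3* (LOC4327691) at 0.18 and 0.06, *GRXC13* (LOC9269626) at 0.06 and 0.13, *GRXS2* (LOC4327316) at 0.03 and -0.43, *GRXC1* (LOC4325734) at -0.16 and -0.34, *GRXC8* (LOC4341733) at -0.38 and -0.21, *GRXS10* (LOC9269420) at -0.48 and -0.52 and *GRXS4* (LOC4327794) at -0.60 and -0.57. The median of the family was 0.05 in WT and -0.08 in H49, and the latter became 0.14 with centred arrays. A second probe set of *GRXC1* gave -0.15 and -0.35, close to the first.

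Only 2 class III peroxidase genes were found by name, so they do not stand for the family. Both fell in H49, where 9.3% of all genes did, and *PRX74* fell in WT as well (8.47% of all genes). *PRX74* (LOC4339222) was at 5.63, 6.02 and 5.64 in WT_CT and at 4.69, 4.37 and 3.75 in WT_DS, and at 6.13, 6.12 and 5.71 in H49_CT against 3.92, 3.53 and 3.97 in H49_DS. The groups were far apart in both genotypes, and the fall was 2.81-fold in WT (log2 -1.49, standard error 0.24, limma adjusted p = 0.00079) and 4.54-fold in H49 (log2 -2.18, limma adjusted p = 4.4e-05). *PRX112* (LOC4344279) was at 5.76, 5.91 and 5.39 in H49_CT and at 3.72, 4.88 and 4.28 in H49_DS, a fall of 1.40 (standard error 0.41, limma adjusted p = 0.022). In WT the controls alone ran from 4.69 to 6.56 and overlapped the DS arrays (-0.80, limma adjusted p = 0.17).

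The call of *PRX112* in H49 was lost without H49_CT replicate 1 (-1.36), H49_CT replicate 2 (-1.29), H49_DS replicate 1 (-1.11) or H49_DS replicate 3 (-1.39), with a limma adjusted p between 0.054 and 0.095, and in WT the gene was called without WT_CT replicate 2 (-1.27). Quantile normalization (-1.22, limma adjusted p = 0.052) and adjustment over all probe sets (limma adjusted p = 0.055) ended the call in H49 as well. The peroxidase gene with the firmer call, *PRX74*, kept it without any single array and under each scaling.

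*RBOHB* (LOC4326027), an NADPH oxidase gene, was the only RBOH gene found by name. It was at 8.69, 8.23 and 8.55 in H49_CT and at 7.05, 7.22 and 7.32 in H49_DS, a fall of 2.45-fold (log2 -1.30, standard error 0.22, limma adjusted p = 0.00099). In WT it went from 7.93, 8.24 and 8.69 to 7.61, 7.23 and 7.08, also without overlap, and the value of -0.98 (limma adjusted p = 0.0061) stood just under 2-fold. Without WT_CT replicate 1 (-1.16), WT_CT replicate 2 (-1.004) or WT_DS replicate 1 (-1.13) it was called in WT too. The arrays of the 16 called members are plotted one by one below.

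**Figure D2:**
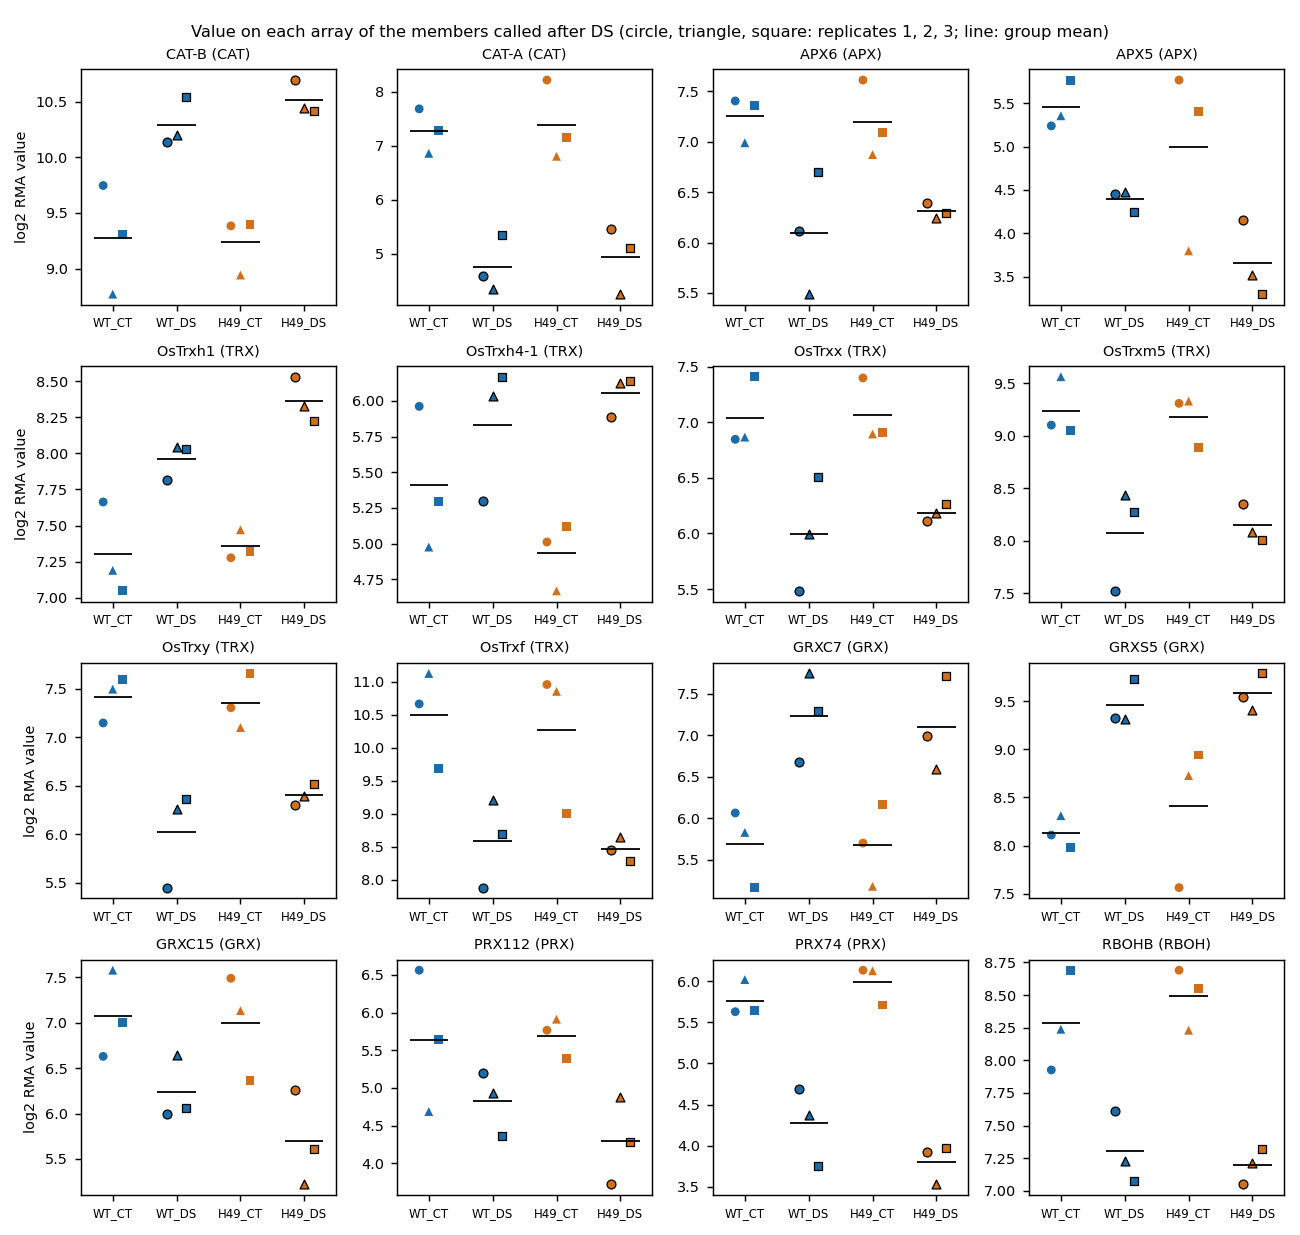
Log2 RMA value on each array of the 16 members called after DS in WT or H49, 1 panel per gene, with the group on the horizontal axis, WT in blue and H49 in orange, and the line at the group mean. In *CAT-A*, *OsTrxf* and *PRX74* every DS array lies below every control array of its genotype, and in *CAT-B*, *GRXC7* and *GRXS5* above.

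Arrays that do not overlap were counted as well. In WT the DS arrays were all higher for 5 members and all lower for 14, against 15% and 24.9% of all genes, and in H49 for 8 and 16, against 17.7% and 27.1%. DS arrays were all higher than control arrays for 5 members in both genotypes, and all lower for 10, where 9.58% and 19.2% of all genes did so, that is 10.6% and 21.3% of the members. By this measure the members were near the background.

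Other genes of redox metabolism, listed by name with earlier results known, were glutathione S-transferases, protein disulfide isomerases, glycolate oxidases, methionine sulfoxide reductases, thioredoxin reductases, a glyoxalase, an alternative oxidase and a gene of ascorbate synthesis. Of 24 measured, 1 rose and 3 fell in each genotype (4.93% and 8.47% of all genes in WT, 5.26% and 9.3% in H49), with a median of -0.48 in WT and -0.44 in H49. *AOX1*, for the mitochondrial alternative oxidase, rose by 1.40 in WT (standard error 0.27, limma adjusted p = 0.0024) and by 1.14 in H49. *GLO5*, for glycolate oxidase, which makes hydrogen peroxide in the peroxisome during photorespiration, fell by 1.23 in WT (standard error 0.22, limma adjusted p = 0.0012) and by 1.27 in H49. The protein disulfide isomerase gene *PDIL1-4* fell in both genotypes (-1.24 and -1.09), *PDIL5-1* fell in WT (-1.11) and *PDIL2-1* in H49 (-1.03). *OsNtrC*, for the plastid thioredoxin reductase, had -0.93 in WT (limma adjusted p = 0.018) and -0.60 in H49.

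Markers of green tissue were lower after DS in both genotypes, with 1 of 2 called down. So were *OsTrxf*, *OsTrxm5*, *CAT-A* and *GLO5*, which are named here because they fell. The chloroplast m genes *OsTrxm2* and *OsTrxm3* stayed near 0. Of 2 measured light-harvesting genes, *CAB2R* fell by 2.35 in WT and by 2.28 in H49, and *CAB1R* had -0.87 and -0.76. Their mean ran from 7.58 to 8.55 over the WT_CT arrays and from 6.16 to 6.75 over those of WT_DS, and from 7.69 to 8.52 in H49_CT against 6.34 to 7.19 in H49_DS. Of 3 root markers, *Lsi2*, a silicon transporter gene, fell by 1.81 and 1.34, while *NRT2.3* and *AMT1-1* had values from 0.23 to 0.43 and were not called. The mean of the root markers was 5.71 to 5.92 in WT_CT, 5.31 to 5.63 in WT_DS, 5.56 to 5.90 in H49_CT and 5.44 to 5.75 in H49_DS. The part of tissue makeup in the results was not tested.

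The response to DS was next compared between the genotypes, for which the arrays are separate. Of 47 members, 43 had the same sign in WT and H49, as did 12616 of all 15140 genes. The fold changes correlated across members with r = 0.936, against 0.909 across all genes. Genes are not independent replicates, and all of them share the same 12 arrays. Without the fold minimum 13 members passed the adjusted p in WT (26.5% of all genes) and 18 in H49 (27.1%), and 13 passed in both, where 20.2% of all genes did, so every member that passed in WT passed in H49. An unadjusted p under 0.05 was found for 21 and 22 members, against 38.1% and 38.2% of all genes. Members called in 1 genotype alone numbered 3 in WT (*APX6*, *OsTrxx* and *OsTrxy*) and 6 in H49 (*APX5*, *OsTrxh1*, *OsTrxh4-1*, *GRXC15*, *PRX112* and *RBOHB*). Over all genes, too, more were called in H49 (2205, 14.6%) than in WT (2030, 13.4%). In both genotypes 616 (4.07%) had risen and 955 (6.31%) had fallen. The share of all genes called in 1 genotype alone was not counted. The 3 and 6 members are therefore not read as a difference between genotypes.

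No member passed the test of the difference in response itself. With limma 0 of 47 had an adjusted p of at most 0.05 for the interaction of genotype and treatment, and 0 had an unadjusted p under 0.05, where 2.38% of all genes did. The smallest unadjusted p was that of *GRXC10*, whose response in H49 minus that in WT was -0.93 (95% interval -1.90 to 0.04). *PRX74* followed with -0.69 (95% interval -1.44 to 0.05) and *OsTrxh4-1* with 0.70 (95% interval -0.14 to 1.53). For 29 of the 47 members the 95% interval of this difference lay within 1 log2 unit of 0, and for the other members it reached beyond that.

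**Figure D3:**
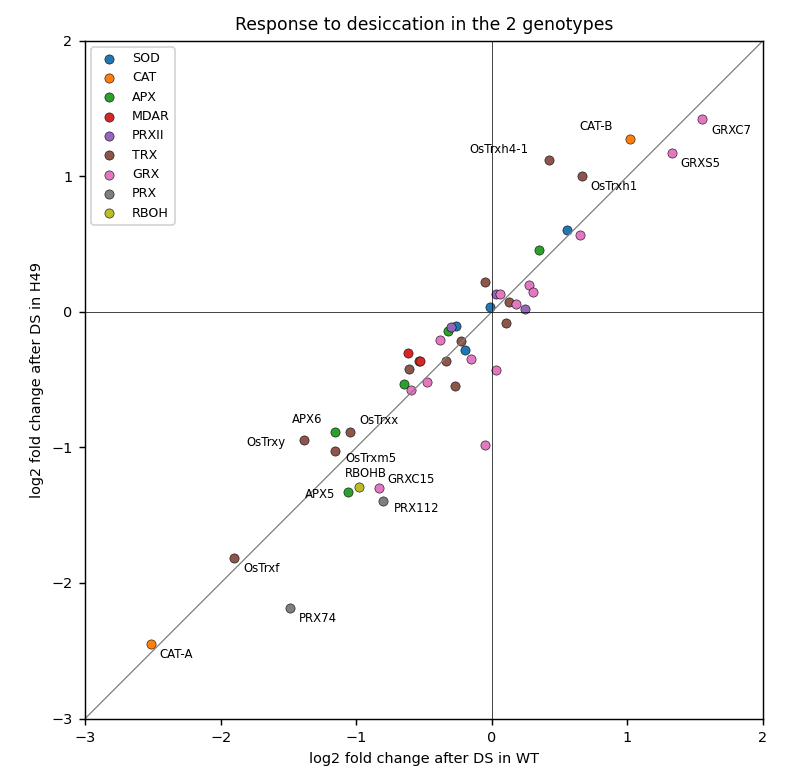
Log2 fold change after DS in WT (horizontal) against that in H49 (vertical), 1 point per member, coloured by family, with the 16 called members named and the line of equal change in grey. *PRX74* lies below the line at -1.49 and -2.18, and *CAT-A*, *OsTrxf* and *GRXC7* lie near it.

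The genotypes were also compared directly, to see whether over-expression of *OsHOX24* went with other levels of these genes. Of 47 members, 0 were called between H49 and WT without stress, after DS or over both treatments by limma, 0 had an unadjusted p under 0.05 in any of these comparisons, and the methods' t-test at its unadjusted threshold with the 2-fold minimum also gave 0 without stress and after DS. Over all genes 0 of 15140 (0%) were called, and 1.92%, 4.84% and 3.99% had an unadjusted p under 0.05. The smallest adjusted p of a member was 0.969, over both treatments.

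*APX5* had the largest difference over both treatments, -0.60 with a 95% interval from -1.21 to 0.01. Its H49_DS arrays (4.15, 3.52 and 3.30) were all below those of WT_DS (4.46, 4.47 and 4.25), and the control groups overlapped. *OsTrxh1* had 0.23 (95% interval -0.06 to 0.51) and *OsTrx19* 0.25 (95% interval -0.10 to 0.59). *OsTrxh1* was higher in each H49_DS array than in each WT_DS array, whereas the controls overlapped. After DS, 1 member (*OsTrxh1*) was higher in H49 without overlap and 2 (*APX5* and *GRXC1*) were lower, against 4.59% and 3.9% of all genes. Without stress, 2 (*PRXIIE-1* and *OsTrxh2-1*) were higher and 0 lower, against 4.34% and 3.12%. For 46 of the 47 members, all but *APX5*, the 95% interval lay within 1 log2 unit of 0, so that a 2-fold difference in mean level over both treatments was outside it. For *CAT-A* the interval ran from -0.46 to 0.75 and for *RBOHB* from -0.29 to 0.39.

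**Figure D4:**
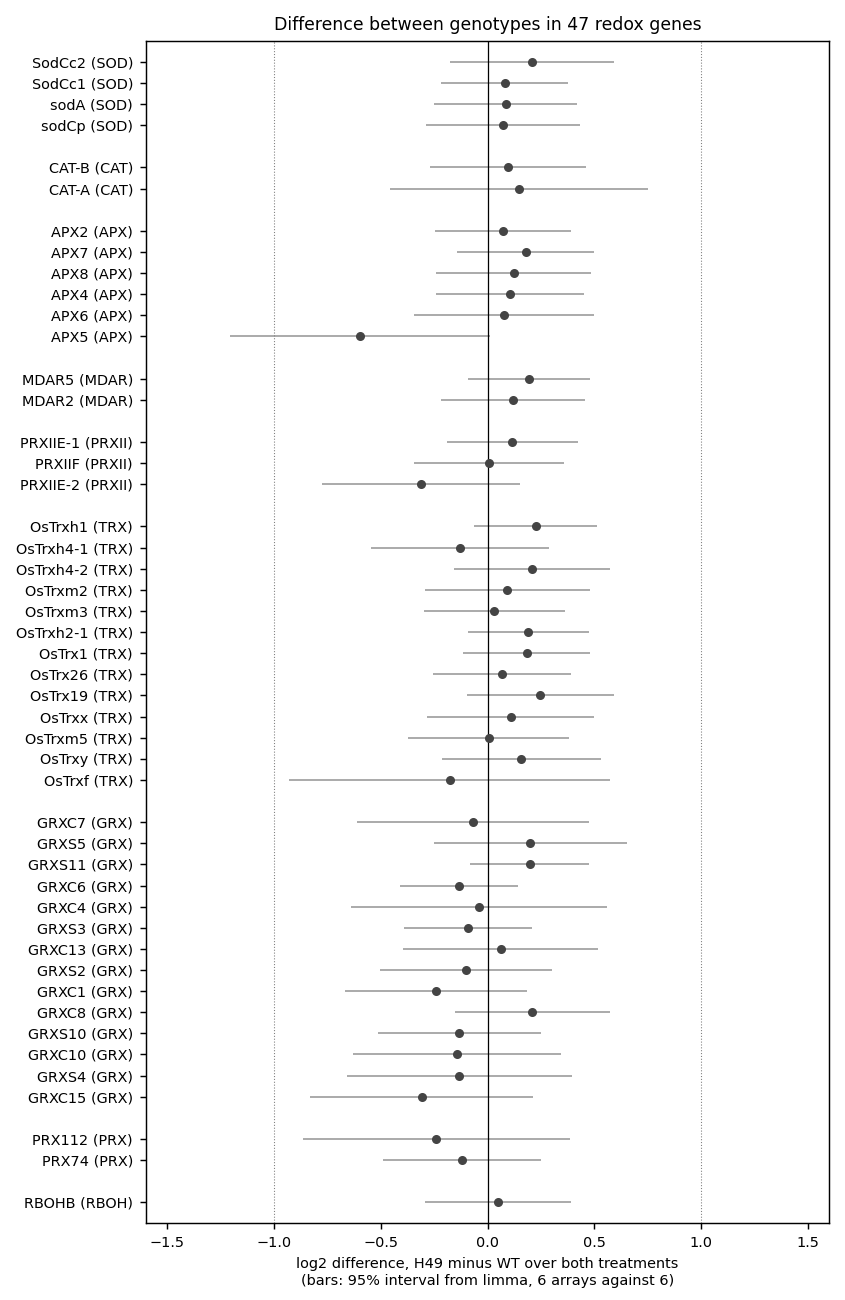
Difference H49 minus WT over both treatments on the log2 scale for the 47 members, grouped by family, with 95% intervals from limma. Dotted lines mark a 2-fold difference. The interval of *APX5* (-1.21 to 0.01) reaches beyond it, and those of the other 46 members stay inside.

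Some members followed the replicate number of the arrays. The same number was highest in all 4 groups for 4 members, or 8.51%, against 7.46% of all genes: *MDAR2* and *OsTrxm2* in replicate 2, and *OsTrxy* and *GRXC4* in replicate 3. *GRXC4* was at 6.85, 6.70, 7.05 and 7.29 in the replicate 3 arrays of WT_CT, H49_CT, WT_DS and H49_DS, and between 5.72 and 6.68 in the other 8 arrays. Replicate 2 was lowest in all 4 groups for *CAT-A*, *APX6*, *sodA* and *GRXC8*, again 8.51% against 6.88% of all genes. These shares were close to the background.

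The 20 members without a probe set of their own were not analysed here. They were *APX1* and *APX3*, *MDAR1*, *PRXIIC*, 6 thioredoxins (*OsTrxm1*, *OsTrxh2-2*, *OsTrx15*, *OsTrxh5*, *OsTrxo1* and *OsTrx25*) and 10 glutaredoxins (*GRXS1*, *GRXS6*, *GRXS7*, *GRXS9*, *GRXS12*, *GRXC2*, *GRXC3*, *GRXC5*, *GRXC11* and *GRXC14*). *APX3* has a probe set that it shares with 1 more gene, which gave -0.01 in WT and -0.07 in H49 and cannot be assigned to either.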

How the data were processed

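The authors hybridized RNA of 12 samples to Affymetrix arrays and normalized them by RMA in GeneSpring. The deposited values are log2, 1 per probe set and array (54922 probe sets), and were used without further scaling. The genome build is not given in the sources used here, and no coordinates are printed. Of the probe sets, 15829 carried 1 gene in the platform's gene table, 440 several and 38653 none. A gene was represented by its probe set with the highest mean (627 genes had more than 1). Names came from the RefSeq gene table of assembly ASM3414082v1.

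Limma 3.58.1 in R 4.3.3 fitted 1 mean per group over 12 arrays, with Benjamini-Hochberg adjustment over 15140 genes. The median standard error was 0.23 for 3 arrays against 3. The members and lists were chosen with earlier results of these data known. Genes given in full were those called after DS, all members of families of 5 or fewer, the member of each family with the highest mean and that with the largest change, and the 3 with the smallest p between genotypes and for the interaction. The labels name a 3' IVT PLUS labelling kit and the methods a WT PLUS kit. The fit was tested on simulated data. Figures were drawn with Python 3.11.15 and matplotlib 3.10.9. Promoter motifs were planned and not searched, since no sequences were used here.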

Additional observations from a re-analysis of the deposited data

How the results depend on the processing

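The replicate numbers of the labels are not said to mark a shared batch. Of 18 pairs of arrays with the same number, 13 had a correlation of their deviations from the group means above 0.1, and the lowest was -0.20. Of 12 arrays, 10 correlated best with one of their own number, so arrays of a number may share an effect. The main fit holds no term for it, since no pairing is stated. The counts as reported were 3 rises and 7 falls in WT and 5 and 8 in H49. With the replicate block they were 3, 8, 5 and 8, with *APX5* called in WT as well (-1.06, limma adjusted p = 0.049). A fold minimum of 1.5 gave 5 rises and 8 falls in WT and 5 and 12 in H49. With no fold minimum these counts were 5, 8, 6 and 12. A t-test, named in the methods in general and not for the arrays, was also run. With Benjamini-Hochberg adjustment it gave 1 rise and 0 falls in WT and 3 and 3 in H49, against 3, 8, 4 and 7 without adjustment. Centred arrays gave 4 falls in WT, and the test of genes above the median level alone, which leaves 37 members, 5 falls in H49. With single arrays left out there were 2 to 3 rises and 5 to 8 falls in WT and 3 to 5 rises and 3 to 8 falls in H49. Between genotypes and for the interaction the count was 0 under every alternative run. Of 23 calls of named members, 10 held with any array left out, 13 were lost at least once and 0 changed sign.

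Of the 94 fold changes of all 47 members, 10 changed sign with centred arrays and 7 with quantile normalization, none of them called and none above 0.23 in size as reported. Among the 28 members given in full, values changed sign in 9 comparisons. With centred arrays *GRXC10* had 0.15, *SodCc1* 0.19 and *sodCp* 0.012 in WT, and *PRXIIE-2* 0.10 and *sodA* 0.11 in H49. Quantile normalization gave 0.077 for *SodCc1* in WT, and the mean of both probe sets 0.10 for *sodA* in H49. With single arrays left out the values ran in WT from -0.38 to 0.20 for *GRXC10*, from -0.057 to 0.18 for *PRXIIF* and from -0.22 to 0.10 for *SodCc1*, and in H49 from -0.072 to 0.17 for *PRXIIE-1*, from -0.33 to 0.10 for *PRXIIE-2*, from -0.054 to 0.41 for *PRXIIF* and from -0.052 to 0.10 for *SodCc1*. The number of arrays limits the precision, and the cause of these changes was not tested.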
